A study of Mus musculus with 6 samples.

Results

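The cells described are the hypothalamic astrocytes of male ob/ob mice, which lack leptin and become obese and diabetic. They were taken as every cell that the authors labelled as an astrocyte in a library of the R50E group, and they numbered 5909 of the 20151 cells of that group. Each mouse was 11 weeks old, had received 3 µg of FGF1 R50E, a mutant form of fibroblast growth factor 1, into the ventricles of the brain, and was killed 5 days later. Whole cells were dissociated and profiled by droplet single-cell RNA sequencing of transcript 3′ ends, with 1 mouse per library. All 6 labelled samples belong to this group and carry the ob/ob genotype and the injection, and cells of 4 of them, mice 3, 4, 30 and 34, were analysed. The samples analysed include no control group, so the values below describe these astrocytes and not an effect of the injection. Values per mouse are given in the order of mice 3, 4, 30 and 34.

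Astrocytes take up glutamate and GABA after synaptic release, buffer potassium, move water along their end-feet on blood vessels and pass metabolites to neurons through gap junctions and transporters. In the hypothalamus they also surround neurons that sense glucose and hormones. They carry FGF receptors, which signal through the MAPK/ERK cascade, whose outputs include the Etv transcription factors and the Spry and Spred inhibitors that feed back on the same cascade.

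The mice gave 2498, 719, 509 and 2183 astrocytes, which were 33.8%, 22.6%, 16.9% and 33.2% of their cells (26.6% ± 8.26, SD, n = 4). The astrocytes held 2206005, 778262, 499682 and 2000728 UMIs (unique molecular identifiers, that is, counted molecules). Median depth per cell was similar, at 829.5 to 888 UMIs and 505 to 544 genes, and the median mitochondrial share was 14.7% to 16.1%. Of 5899 distinct astrocyte barcodes, 10 occurred in more than 1 mouse (0.17%). Mouse 30 stood apart from the other mice. Its astrocytes had the highest summed level of 4 haemoglobin genes, at 548 CPM (UMI counts per 1000000 UMIs of the sum) against 115 to 169 CPM, the highest levels of most interferon-responsive genes, and the smallest number of UMIs. Markers of other cells were low in the astrocyte sums with 1 exception. The microglial list summed to 151, 256, 272 and 133 CPM against 12066 CPM in microglia, with P2ry12 and C1qa both above 0. The tanycyte list summed to 80.2, 158, 250 and 94.97 CPM, and the neuronal list to between 218 and 355 CPM. Oligodendrocyte markers were the exception, with 5106, 3739, 3136 and 3040 CPM, which lies in or above the range of 2396 to 4034 CPM seen in the other types outside that lineage. The part of these transcripts in the results below was not tested.

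The label was checked against Fgfr3, Aqp4, Slc1a2 and Gja1. Fgfr3, an FGF receptor typical of astrocytes, was at 925, 837, 893 and 846 CPM, and its next highest type, the oligodendrocyte precursor cells (OPC), was at 114.5 ± 14.8 CPM (SD, n = 4). Slc1a2, the main glutamate transporter of astrocytes, was at 3818, 3968, 4589 and 3921 CPM, against a mean of 1525 CPM in tanycytes. Gja1, which encodes the gap junction protein connexin 43, was at 1964, 1508, 1575 and 1838 CPM, against 602 CPM in ependymal cells. These 3 genes were thus higher in the astrocytes of every mouse than in the mean of any of these types. Aqp4, the water channel of astrocyte end-feet, was at 414, 559, 422 and 312 CPM and separated astrocytes less sharply. Ependymal cells were at 288, 410, 477 and 272 CPM, a mean of 362 CPM, and in mouse 30 they were above the astrocytes. The 15 genes of the astrocyte marker list summed to between 22111 and 22747 CPM in astrocytes and to between 2481 and 7257 CPM in the other types. The data therefore did not go against the label.

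Of 1333 genes with at least 100 CPM in astrocytes, 338 were higher there than in each of the 7 other types that had 20 or more cells per mouse, 118 of them at least 2-fold and 33 at least 4-fold. The 15 genes with the largest ratio to the next highest type began with Itih3, which encodes a heavy chain of an inter-alpha-trypsin inhibitor. It was at 2692, 1870, 1787 and 2710 CPM and was 9.58-fold above microglia. Agt, which encodes angiotensinogen, the precursor of angiotensin, was at 1550, 1485, 1561 and 1729 CPM and was 8.36-fold above its next type. Ntsr2, a neurotensin receptor gene, had a ratio of 8.08, and the connexin 30 gene Gjb6 one of 7.93. The GABA transporter gene Slc6a11 had a ratio of 6.78, the neutral amino acid transporter gene Slc7a10 one of 7.16 and the bicarbonate cotransporter gene Slc4a4 one of 6.32. The others were Entpd2, Fgfr3, Lgi4, Etnppl, Igsf1, Lrig1, Atp13a4 and Aldh1l1, the last of which encodes a folate enzyme used as an astrocyte marker, with ratios between 5.96 and 7.91. In each of the 15, the lowest astrocyte sum of any mouse lay above the highest sum of any of these types in any mouse, by 2.43-fold for Igsf1 and 6.38-fold for Itih3. The ratios chose these genes and are given as a description.

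**Figure D1:**
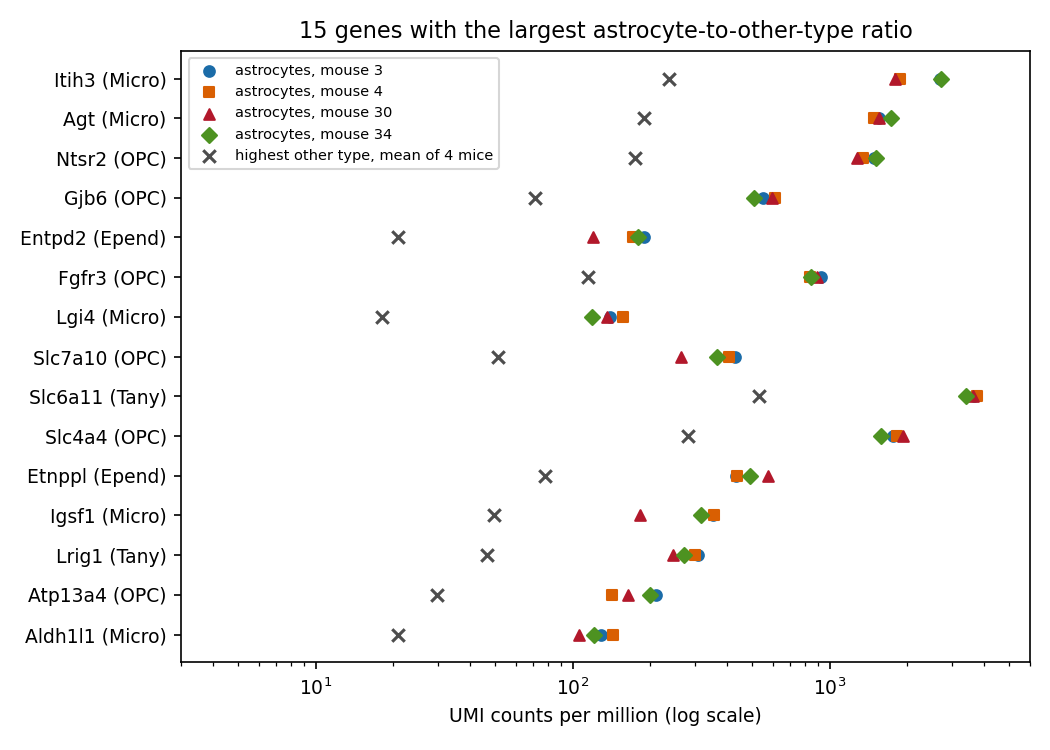
Levels of the 15 genes in CPM on a log axis, with 1 coloured symbol per mouse for astrocytes and a cross for the mean of the next highest type, named in brackets. The astrocyte symbols of all 4 mice lie to the right of the cross in every row, with Slc6a11 at 3386 to 3738 CPM against 530 CPM in tanycytes.

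At the level of single cells, each cell was thinned to 600 UMIs to equalise depth, which kept 5873 astrocytes. A UMI of Slc6a11 was found in 85.6% of astrocytes and in 10.3% to 26.5% of the cells of the other types. Fgfr3 was found in 41.2% of astrocytes against 1.49% to 6.08%, and Agt in 59.1% against 5.22% to 9.49%. Whether free RNA, stray transcripts or low expression gave the shares in the other types was not tested. Median depth before thinning was 851 UMIs in astrocytes and 939 to 1771 UMIs in the other types. Gfap, the intermediate filament gene most used to stain astrocytes, was found in 6.78% of astrocytes and in 1.47% to 3.89% of other cells.

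The next question was how astrocytes differed, in the same mice, from tanycytes, ependymal cells and OPC. UMI counts were summed per mouse and type and compared with edgeR, and a gene was called at an adjusted p below 0.05 with a log2 fold change above 1 or below -1. The cell type labels rest on the same counts, so the calls describe the types and do not test the label. Against tanycytes, 1108 of 10081 genes were higher in astrocytes (11.0%) and 1020 were lower (10.1%). Against ependymal cells, 1195 of 8371 genes were higher (14.3%) and 1470 lower (17.6%). Against OPC, 854 of 6902 genes were higher (12.4%) and 750 lower (10.9%). The median log2 fold change over all tested genes was 0.01, 0.02 and -0.01. In all 3 comparisons 376 genes were called higher in astrocytes, which is 33.9%, 31.5% and 44.0% of the 3 lists of higher genes. The astrocyte sums entered all 3 comparisons, so the counts are not independent of each other.

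The genes that clear and recycle transmitters were higher in astrocytes almost throughout. Of 11 tested, 9 were called higher against tanycytes, 9 against ependymal cells and 10 against OPC, and none was called lower. The median log2 fold changes were 2.23, 2.35 and 2.13. Slc6a11, at 3644, 3738, 3594 and 3386 CPM, had log2 fold changes of 2.78 ± 0.07 (SE), 3.43 ± 0.12 and 3.39 ± 0.09, and the lowest mouse was far above the means of 530, 362 and 428 CPM. Glul, which encodes the glutamine synthetase that converts glutamate to glutamine, was at 1882, 2058, 2193 and 2135 CPM and had log2 fold changes of 1.81, 2.35 and 2.13. Slc7a10, the transporter gene for serine and glycine, was at 427, 407, 264 and 365 CPM, lowest in mouse 30. It had the highest log2 fold change of the group against ependymal cells, 4.80 ± 0.18. Abat, the GABA transaminase gene, passed the limit against OPC only, with values of 0.62, 0.84 and 1.51.

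Potassium, water and junction genes showed the same breadth, with 10, 8 and 9 of 10 tested genes called higher and none lower. Their median log2 fold changes were 2.04, 1.69 and 2.59. Kcnj10, the gene of the inward rectifier Kir4.1 that takes up potassium, was at 545, 616, 462 and 537 CPM. Its log2 fold changes were 2.08 ± 0.09 (SE), 1.45 ± 0.12 and 1.28 ± 0.10. Kcnj16, whose product pairs with Kir4.1, had values of 2.40, 1.75 and 1.25. Gjb6 was at 550, 610, 598 and 508 CPM, with log2 fold changes of 4.05, 4.01 and 3.39, and the mice did not overlap with any of the means of 36.5, 38.6 and 71.5 CPM. Against ependymal cells Aqp4 (0.37, edgeR adjusted p = 0.018) and the dystroglycan gene Dag1 (0.49) remained under the limit of 1.

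In energy metabolism, 5 of 12 tested genes were called higher and 1 lower against tanycytes, 7 and 0 of 12 against ependymal cells and 9 and 0 of 11 against OPC. The glycogen synthase gene Gys1, the phosphofructokinase gene Pfkp, the fatty acid carnitine transferase gene Cpt1a and the acyl-CoA synthetase gene Acsbg1 were called higher each time. Cpt1a was at 61.6, 74.5, 58.0 and 72.0 CPM, with log2 fold changes of 1.58, 1.87 and 1.38. The exception was Ldha, the lactate dehydrogenase subunit that favours lactate production. It was at 87.9, 113, 158 and 87.0 CPM in astrocytes and at 273 CPM in tanycytes, a log2 fold change of -1.36 ± 0.10 (SE). Ldhb, the other subunit gene, went the opposite way with 0.70 against tanycytes, under the limit, and 1.94 and 1.16 in the other comparisons. The call of Ldhb against OPC was lost without mouse 3 (1.00). Slc2a1, the gene of the glucose transporter GLUT1, was higher than in tanycytes and OPC (1.25 and 2.33) and had a value of -0.86 against ependymal cells.

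Lipid and cholesterol genes were called higher in 9, 13 and 9 of 16 cases, with 1 lower gene, against OPC. Median log2 fold changes were 1.11, 1.64 and 1.22. Acsl3 and Acsl6, which activate fatty acids, were among the most separated, with values of 2.25 and 2.23 against tanycytes and 2.75 and 2.43 against OPC. Apoe, the main lipid carrier gene of the brain, was at 3029, 5307, 3848 and 3236 CPM, highest in mouse 4. Its log2 fold change was 0.70 against tanycytes, under the limit, and 1.53 and 2.21 in the other comparisons. Among sterol synthesis genes of the list, Hmgcs1, Cyp51, Fdft1 and Idi1 were called higher against ependymal cells, with values between 1.51 and 2.18, whereas Sqle was at -0.25 and not called. Against OPC none of these 5 passed the limit (-0.25 to 0.93). Insig1, which encodes a sterol-regulated brake on that pathway, was at 203, 190, 92.1 and 254 CPM, lowest in mouse 30, and was called higher each time (1.13, 2.90 and 1.07), but not against OPC without mouse 4 (0.87). The gene that was lower was Fabp7, a fatty acid binding protein gene of glial progenitors, with 321 ± 27.5 CPM in astrocytes and 857 CPM in OPC (-1.12).

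Synapse and matrix genes were called higher in 10, 11 and 7 of 11 tested cases, with median log2 fold changes of 2.01, 1.63 and 1.03. Sparcl1 encodes hevin, a secreted protein that promotes synapse formation. It was at 4902, 5208, 4749 and 4581 CPM and had log2 fold changes of 2.65, 1.63 and 2.34. The phagocytic receptor genes Megf10 and Mertk were called higher in all 3 comparisons, with 2.71, 2.38 and 1.40 for Megf10 and 1.31, 3.63 and 1.83 for Mertk. Chondroitin sulphate proteoglycan genes divided the comparisons. Ncan, Bcan and Cspg5 were all above tanycytes (2.59, 2.01 and 1.67) and above ependymal cells (1.47, 3.08 and 2.67), but Cspg5 was lower than in OPC (-2.14), and Ncan and Bcan stayed under the limit there (-0.42 and 0.55). Timp4 and Gpc5 lay close to the limit against OPC (both 1.02). Without mouse 34 they were 0.97 and 0.84, and Timp4 was 0.87 without mouse 3.

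**Figure D2:**
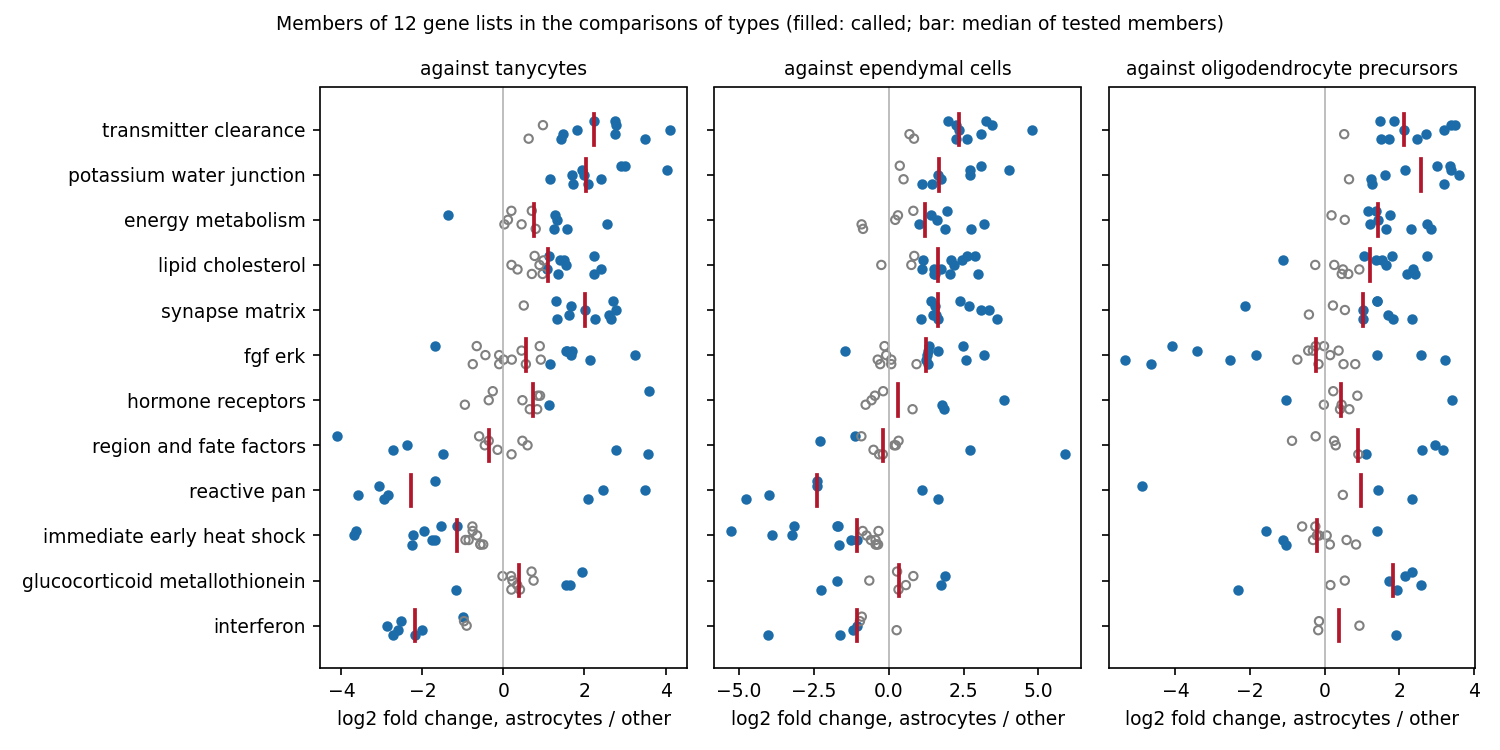
Log2 fold change of astrocytes over tanycytes, ependymal cells and oligodendrocyte precursor cells for the tested members of 12 gene lists, with filled points for called genes, open points for the others and a red bar for the median of tested members. Transmitter clearance and potassium, water and junction genes lie to the right of 0 in all 3 panels, while the interferon list has a median of -2.18 against tanycytes and 0.39 against oligodendrocyte precursor cells.

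Genes of FGF signalling divided by role. Among receptors, Fgfr3 was called higher against each type, with log2 fold changes of 3.25, 3.20 and 3.24. Fgfr1 was at 113, 87.4, 124 and 111 CPM and Fgfr2 at 29.5, 33.4, 20.01 and 24.0 CPM, and neither was called in any of the comparisons in which it was tested. The ligand gene Fgf1 was at 77.5, 79.7, 82.1 and 80.5 CPM, a narrow range over the 4 mice. It was called higher in astrocytes each time (1.54, 1.31 and 1.42), whereas Fgf2 was at 10.4 to 25.7 CPM and was not called. Of the 23 genes of the list, 7 of 19 tested were called higher and 1 lower against tanycytes, and 9 of 17 higher and 1 lower against ependymal cells. Against OPC the balance differed, with 3 of 19 higher and 6 lower. The cascade outputs accounted for the 6: Spry1 (-5.34), Ccnd1 (-4.66), Phlda1 (-4.10), Spry4 (-3.42), Etv4 (-2.53) and Etv5 (-1.83). Etv5 was at 75.3, 63.0, 52.0 and 47.5 CPM in astrocytes and at 293, 201, 263 and 268 CPM in OPC, so the mice did not overlap. The same gene was higher in astrocytes than in tanycytes (1.68) and ependymal cells (2.57). Spry2, Spred1 and Spred2 did not separate astrocytes from OPC (0.15, -0.01 and -0.16, under the limit). Dusp6, an ERK phosphatase gene, passed the limit only against ependymal cells (1.26), with this direction in 2 of 4 mice. It was at 38.5, 14.1, 20.01 and 41.5 CPM in astrocytes and 8.08, 23.1, 29.5 and 7.22 CPM in ependymal cells. DESeq2 lost the call (adjusted p = 0.18), and without mouse 3 or mouse 34 it no longer did (0.87 and 0.65).

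The integrin genes of this list also differed by type. Itgav, the alpha-v subunit gene, was at 232, 145, 148 and 231 CPM in astrocytes and was called higher only against ependymal cells (2.48 ± 0.17, SE). Itgb8, a partner of alpha-v, was called against tanycytes and ependymal cells (1.56 and 1.24), and Itgb5 against OPC (2.58).

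Of the hormone and receptor genes, 2 of 10, 3 of 8 and 1 of 8 were called higher and 0, 0 and 1 lower. Apart from Agt, which was called each time (3.59, 3.85 and 3.42), these were Irs1 against tanycytes (1.12) and the thyroid hormone receptor gene Thrb and the glucocorticoid receptor gene Nr3c1 against ependymal cells (1.84 and 1.77). Irs2, a docking protein gene of the insulin receptor, was lower than in OPC (-1.05), and it was -0.90 without mouse 3. The leptin receptor gene Lepr was at 3.63, 3.86, 2.00 and 2.50 CPM in astrocytes.

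Of the transcription factor genes that mark lineage and region, 2 of 13 tested were higher and 4 lower against tanycytes, 2 of 11 each way against ependymal cells and 4 of 9 higher against OPC. Hes5, a Notch target, was at 73.4, 84.8, 82.1 and 78.0 CPM and was called higher each time (3.58, 5.87 and 1.10), as was Id3 (2.77, 2.73 and 2.63). Lhx2, Six3, Rax and Nkx2-1, factors of the hypothalamic ventricular zone, were the 4 that were lower than in tanycytes, by -4.11, -2.72, -2.37 and -1.50. Sox9 was level with tanycytes (-0.15) and 3.19 above OPC.

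Genes linked to astrocyte reactivity did not move as a group. Of the pan-reactive list, 3 of 8 tested genes were called higher and 5 lower against tanycytes, 2 and 4 of 6 against ependymal cells and 2 and 1 of 4 against OPC. Gfap was higher in astrocytes each time, by 2.10 ± 0.13 (SE), 1.63 ± 0.16 and 2.35 ± 0.18. Vim, another filament gene, was much lower than in tanycytes and ependymal cells, with 25.8, 83.5, 66.0 and 28.0 CPM against 507 and 787 CPM (-3.58 and -4.00). Cd44 and S1pr3 were lower in the same comparisons, by -2.85 and -3.08 against tanycytes. Serpina3n, a protease inhibitor gene, was called higher each time, but against ependymal cells its value of 1.12 rested on 3 of 4 mice, and it was between 0.79 and 0.86 without mouse 3, 4 or 34. Of genes assigned to the A1 and A2 states of reactive astrocytes, Fbln5 and Amigo2 were called higher in all 3 comparisons and no A2 gene was called higher in any. The A1 list had 2, 2 and 3 genes higher and 5, 2 and 0 lower, of 9, 5 and 4 tested, and all 4 tested A2 genes were lower than in tanycytes and ependymal cells.

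Immediate early and heat shock genes were lower in astrocytes than in the cells of the ventricle wall. In both comparisons with these cells 9 genes of the 17 tested were lower and none was higher, with medians of -1.15 and -1.05. Against OPC, 1 of 13 was higher and 3 were lower. The largest gaps were those of the heat shock genes Hspa1a (-3.68 and -3.88) and Hspa1b (-3.63 and -5.27). Hsp90aa1 was at 272, 285, 280 and 287 CPM in astrocytes and at 815 and 2749 CPM in tanycytes and ependymal cells (-1.53 and -3.18). Fos and Jun stayed under the limit in these comparisons (-0.50 and -0.65 against tanycytes). These genes also respond to the dissociation of tissue, and the part of handling was not tested.

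Of the glucocorticoid and metallothionein list, 3 of 12, 2 of 9 and 5 of 8 tested genes were higher and 1, 2 and 1 lower. Sult1a1 and Ddit4 were called higher each time, with 1.94, 1.73 and 1.96 for Sult1a1. Mt1, a metallothionein gene that binds zinc and copper, was at 10549, 13889, 14385 and 13202 CPM. It was level with tanycytes and ependymal cells (0.22 and 0.28) and 2.17 above OPC.

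Of 11 interferon-responsive genes, 9 were highest in mouse 30 in astrocytes. The others were Rsad2, highest in mouse 4, and Ifi27, at 275, 203, 146 and 248 CPM and thus lowest in mouse 30. The list summed to 393.5, 337, 524 and 388 CPM, and without cluster 12 of the authors' clustering to 388, 315, 401 and 382 CPM. Ifit1, which encodes a protein that binds viral RNA, was at 8.16, 15.4, 42.0 and 11.5 CPM. Isg15, a ubiquitin-like modifier gene, was at 3.63, 5.14, 20.01 and 3.50 CPM, and the tetherin gene Bst2 at 18.6, 12.9, 48.0 and 19.5 CPM. Mouse 30 thus lay above the other mice in each, although these values rest on 21, 10 and 24 UMIs in that mouse. Without cluster 12, Bst2 was at 17.3, 10.4, 22.9 and 18.9 CPM, Ifit3 was lowest in mouse 30 (20.3 CPM against 20.8 to 21.99 CPM), and 8 of the 11 genes were highest in mouse 30. Cxcl10, a chemokine gene induced by interferon, was at 1.81, 2.57, 104 and 1.499 CPM, which is 52 UMIs in mouse 30 and 2 to 4 in each of the others. Ependymal cells and tanycytes of mouse 30 held it at 3731 and 855 CPM, and its part as free RNA in astrocytes was not tested. Against tanycytes, 7 of 9 tested genes were called lower in astrocytes and none higher (median -2.18), with Bst2 at -2.74 and Ifitm3 at -2.61. Against ependymal cells, 4 of 7 were lower (median -1.05), led by Ifitm3 at -4.05. Ifit1 and Ifit3 had this direction in 2 of 4 mice and Irf9 in 3 of 4. The calls of Ifit3 and Irf9 were lost without mouse 30 (-0.18 and -0.85), Ifit3 also without mouse 34 (-1.17, edgeR adjusted p = 0.066). DESeq2 lost those of Ifit1, Ifit3 and Irf9 (adjusted p = 0.95, 0.65 and 0.099). Against OPC, Ifit3 was called higher (1.93).

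The promoters of 4 genes that were highest in mouse 30 are shown at the stretch that holds the core of the interferon-stimulated response element. The motif searched was GAAANNGAAA on both strands, in the 300 bases from 250 before to 50 after each gene's start in RefSeq (build GRCm38.p6). It was present in 1079 of 27025 promoters (3.99%), in 6 of the 8 promoters found for the 11 interferon genes (75%), in that of Cxcl10 and in 0 of 14 promoters of the 15 astrocyte-enriched genes. A match describes the letters and is not a measured binding site. The 4 stretches below were chosen after these values were seen, are read on the strand of the gene, and have all matches in capitals, overlapping matches merged into 1 run. They lie at chr19:34640765-34640814 (plus strand), chr4:156200867-156200916 (minus strand), chr8:71537573-71537622 (minus strand) and chr5:92349073-92349122 (minus strand), in the order shown.
Ifit1: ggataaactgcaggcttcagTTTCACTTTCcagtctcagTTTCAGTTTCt
Isg15: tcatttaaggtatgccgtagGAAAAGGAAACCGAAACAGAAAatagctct
Bst2: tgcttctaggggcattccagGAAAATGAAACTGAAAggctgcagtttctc
Cxcl10: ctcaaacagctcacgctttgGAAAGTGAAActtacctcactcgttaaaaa

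Against tanycytes, Gm9881 had 75 UMIs in astrocytes and 0 in tanycytes, which is at least 25.8-fold higher, taking 3 counts over the group as the floor. Gjb2, the connexin 26 gene, followed with a log2 fold change of 4.64 ± 0.37 (SE), with 33.5, 30.8, 32.0 and 32.5 CPM, and then Angptl4 (4.57), Vav3 (4.52) and Prss35 (4.39). Crym, a thyroid hormone binding protein gene of tanycytes, was lower by -5.42, with 9.07, 17.99, 40.03 and 10.5 CPM in astrocytes against 664 ± 164 CPM. The other 4 that were lowest against tanycytes were Ptx4, Dnah6, P3h2 and Cfap45, between -5.48 and -5.25. Against ependymal cells, Hif3a, a member of the hypoxia-inducible factor family, had 136 UMIs in astrocytes and 0 in ependymal cells, at least 18.8-fold higher. Hes5 (5.87), Cyp4f15 (5.47), B3galt2 (5.21) and the citrate transporter gene Slc13a5 (5.16) followed. At the other end, Sntn, a gene of motile cilia, had 0 UMIs in astrocytes and 455 in ependymal cells and was at least 366-fold higher there. Stoml3, Got1l1 and Prr29 were also at 0 UMIs in astrocytes and at least 161-fold, 140-fold and 131-fold higher in ependymal cells, while FRMPD2 had 1 UMI in astrocytes and 397 in ependymal cells. Against OPC, Angptl4 (4.71), the phosphorylase kinase gene Phkg1 (4.65), 1190005I06Rik (4.47), Lgi4 (4.47) and Gli1 (4.35) were the highest. The lowest were Pcdh15 (-7.61), Matn4 (-7.33), Fam212b (-7.19) and the precursor markers Pdgfra (-6.84) and Cspg4 (-6.67). Phkg1 was at 217, 179, 188 and 195 CPM in astrocytes and at 9.72 CPM in OPC.

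The spread between mice was small for most genes of astrocytes. The common biological coefficient of variation (BCV) was 0.134 over 2873 genes with at least 50 CPM, and over the 8 types with 20 cells in every mouse it ranged from 0.120 in oligodendrocytes to 0.260 in microglia. Types differ in the number of cells and UMIs behind that value. Of the 10 genes with the largest dispersion among the 1333 genes with at least 100 CPM, 9 are given as a description. Gfap was at 144, 391, 428 and 160 CPM, so that mice 4 and 30 were above mice 3 and 34. Fos, an immediate early gene, went the other way, at 1628, 558, 398 and 1258 CPM. In OPC (659, 443, 544 and 888 CPM), oligodendrocytes and endothelial cells, mice 4 and 30 were also below mice 3 and 34 for Fos. The order was different in tanycytes, at 911, 1198, 926 and 2226 CPM, and in ependymal cells, at 807, 1054, 1419 and 1925 CPM. In tanycytes Gfap was at 34.9, 63.5, 75.8 and 62.8 CPM. Spry2, the ERK feedback gene, ranked just after these 10 in astrocytes, with 207, 75.8, 100 and 206 CPM. It was chosen after its values were seen, and OPC had the same order of low and high mice, at 237, 61.5, 132 and 225 CPM. Egr1, another ERK-responsive immediate early gene, was at 285, 165, 96.1 and 287 CPM in astrocytes. In OPC mice 4 and 30 were also below mice 3 and 34 for Egr1 (366, 111, 204 and 259 CPM). They were not both below them in tanycytes (194, 368, 220 and 579 CPM), ependymal cells, oligodendrocytes or endothelial cells.

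Several of the other genes of large dispersion had a like order of mice in other types. Ptgds, the prostaglandin D synthase gene, was at 141, 479, 1623 and 349 CPM in astrocytes, highest in mouse 30, as in OPC (1473 CPM) and endothelial cells (1556 CPM). Oligodendrocytes held it at 10426 to 17270 CPM, and its part as free RNA in astrocytes was not tested. Vps8, which acts in endosome fusion, was at 285, 1039, 1007 and 328 CPM in astrocytes, and mice 4 and 30 were also above mice 3 and 34 in tanycytes, ependymal cells, OPC, oligodendrocytes and endothelial cells. Cnot3, a deadenylase subunit gene, behaved likewise (48.1, 243, 286 and 76.0 CPM). Gm10076 and the ribosomal protein gene Rpl13 were highest in mouse 4 (542 and 790 CPM), again also in tanycytes, OPC and oligodendrocytes. The haemoglobin gene Hbb-bs was highest in mouse 30 (67.1, 68.1, 300.2 and 100.5 CPM). Meg3, a long noncoding RNA gene, was at 113, 197, 290 and 97.0 CPM in astrocytes, and mice 4 and 30 were also above mice 3 and 34 in tanycytes, oligodendrocytes and endothelial cells, but not in OPC or ependymal cells.

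**Figure D3:**
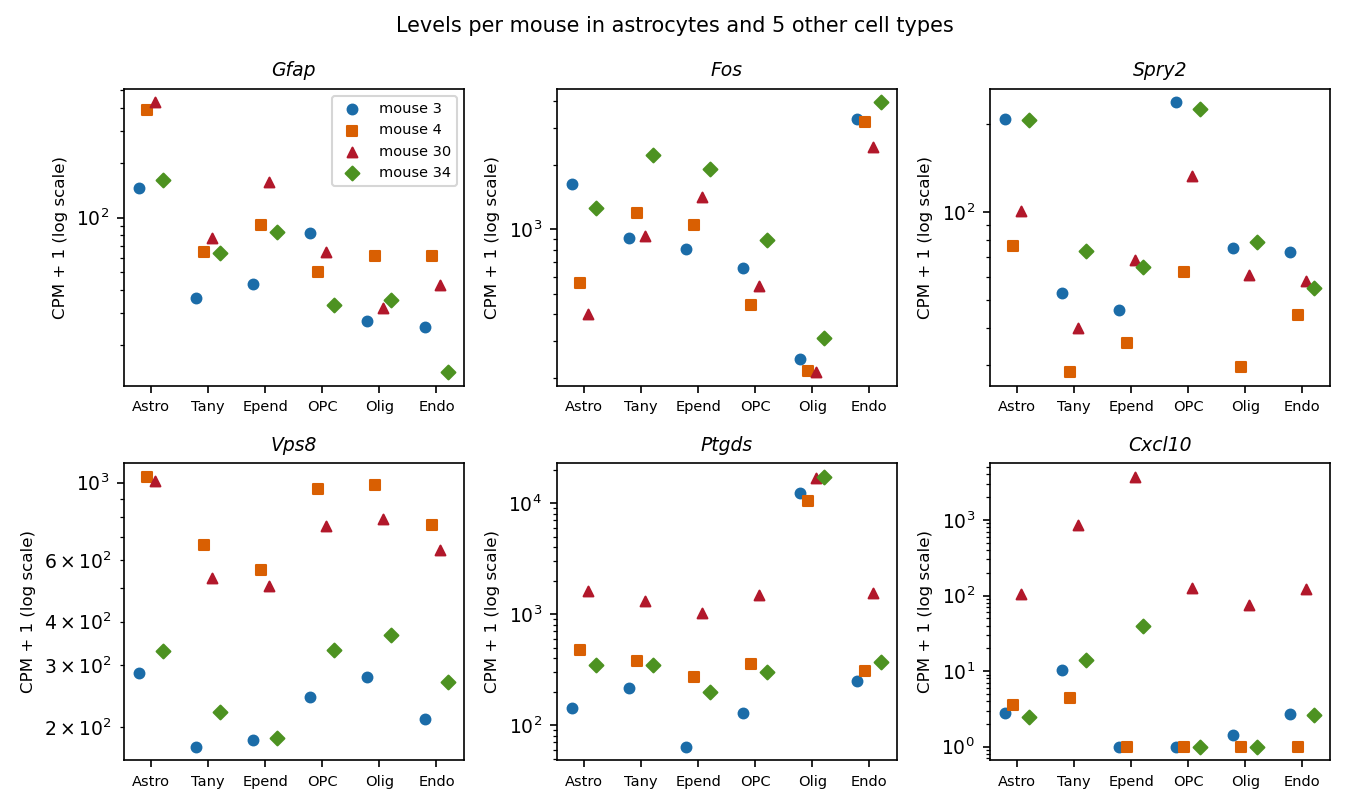
CPM plus 1 on a log axis for 6 genes in astrocytes, tanycytes, ependymal cells, oligodendrocyte precursor cells, oligodendrocytes and endothelial cells, with 1 symbol per mouse. In astrocytes, mice 4 and 30 are above mice 3 and 34 for Gfap (391 and 428 against 144 and 160 CPM) and below them for Fos, and mouse 30 is the highest in every type shown for Cxcl10.

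The authors' clusters at resolution 0.8 placed the astrocytes mainly in cluster 0 (3844 cells), cluster 2 (1610 cells), cluster 12 (375 cells) and cluster 21 (79 cells), with 1 cell in cluster 1. The clusters are used by number, and the genes that lead them are a description. Cluster 12 held 3.08%, 13.5%, 21.0% and 4.31% of the astrocytes, more in mice 4 and 30. Its cells had Gfap at 928 CPM against 158 CPM in the other astrocytes, Vim at 185 against 27.8 CPM and Myoc, the myocilin gene, at 236 against 10.6 CPM. Microglial genes were also among the leading genes of cluster 12, with C1qa at 250 against 28.6 CPM, as was the tanycyte marker Col23a1 (215 against 26.2 CPM), all pooled over mice. By ratio, C1qc, C1qa, Ctss and C1qb ranked above Vim and Gfap. Cxcl10 was also among the leading genes, and within mouse 30 it was at 321 CPM in cluster 12 and 45.7 CPM in the other astrocytes. The part of cells of other types in cluster 12 was not tested. Without cluster 12, the astrocyte sums still held Gfap at 113, 305, 305 and 127 CPM, with mice 4 and 30 above mice 3 and 34. Within cluster 0 alone Gfap was at 68.7, 316, 226 and 114 CPM, and within cluster 2 at 199, 303, 335 and 155 CPM. Cluster 12 itself showed little difference, at 1060, 941, 889 and 858 CPM. Cluster 2 was led by small differences, among them the Notch target Heyl (117 against 65.8 CPM), and cluster 0 by Egr1, Rnf7, Fos and the oligodendrocyte genes Mobp and Mbp (ratios of 1.37 to 1.43, pooled over mice). Within mice 4, 30 and 34 Fos was not higher in cluster 0 than in cluster 12. Cluster 21 was led by Ptgds, at 8799 CPM against 278 CPM, and held 8.06% of the astrocytes of mouse 30 against 0.24% to 1.53% in the other mice.

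**Figure D4:**
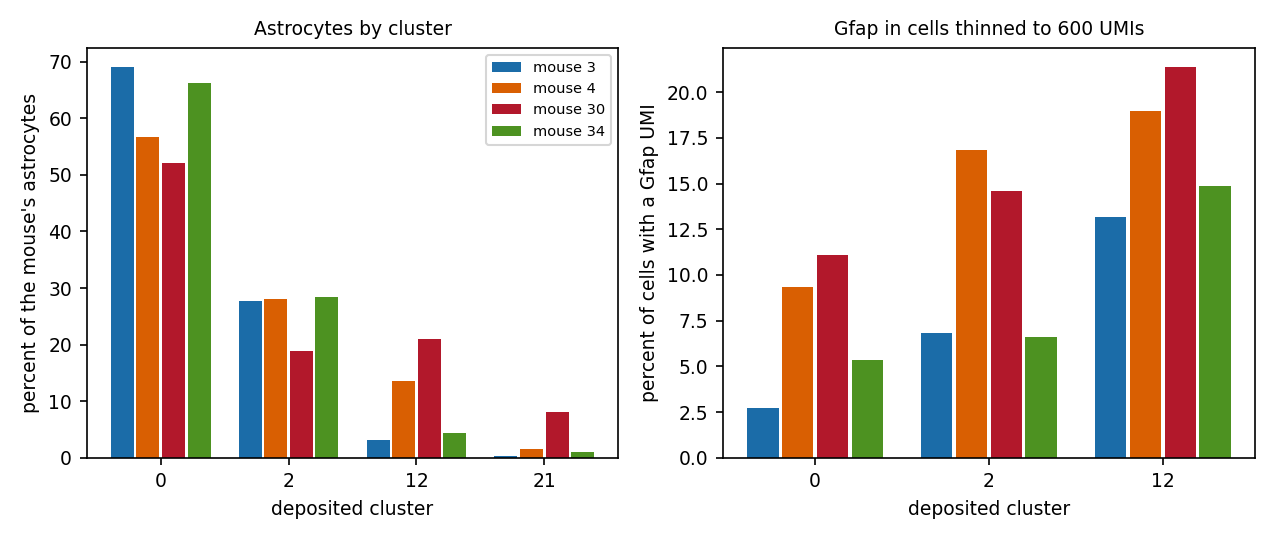
Left, percent of each mouse's astrocytes in the deposited clusters 0, 2, 12 and 21. Right, percent of the cells of clusters 0, 2 and 12 with a Gfap UMI after thinning to 600 UMIs. Mice 4 and 30 have larger shares of cluster 12 (13.5% and 21.0%) and larger Gfap shares within clusters 0 and 2 than mice 3 and 34.

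The share of astrocytes with a Gfap UMI was then used to ask what else differed between such cells and the rest. After thinning to 600 UMIs, 105 of 2488, 89 of 705, 72 of 502 and 132 of 2178 cells held one, or 4.22%, 12.6%, 14.3% and 6.06% (9.31% ± 4.93, SD, n = 4). In cluster 0 of mouse 3 the share was 2.74%, which is within the 1.47% to 3.89% of the other cell types, pooled over mice. In that mouse cluster 0 held Gfap at 68.7 CPM and OPC at 81.0 CPM. Its tanycytes, ependymal cells, oligodendrocytes and endothelial cells held 34.9, 42.0, 25.9 and 24.0 CPM. How far the 2.74% is background was not tested. A cell without a UMI may still express the gene, so the split sorts the cells only in part. Cells with and without a Gfap UMI were summed per mouse and compared with edgeR, with mouse as a block, Gfap itself left out, and a gene called at an adjusted p below 0.05 with no limit on the fold change. Of 2480 genes, 50 were higher in cells with a Gfap UMI (2.02%) and 16 lower (0.645%). Of the 66, 63 had the same direction in 4 of 4 mice. Without the block on mouse only 7 genes were called, all higher.

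Ccdc3, which encodes a secreted protein, had the largest change on the higher side. It was at 175, 150, 92.9 and 88.6 CPM in cells with a Gfap UMI and at 11.2, 21.6, 15.5 and 16.3 CPM in the others. The groups did not overlap, and the log2 fold change was 3.00 ± 0.35 (SE; edgeR adjusted p = 2.87e-11). The growth factor binding protein gene Igfbp5 was at 509, 902, 604 and 367 CPM against 141, 192, 155 and 115 CPM (1.91 ± 0.17). Complement component gene C4b was at 414, 357, 441 and 418 CPM against 141, 165, 120 and 147 CPM (1.47 ± 0.18), again without overlap. The others were the heparan sulphatase gene Sulf2 (2.16), the glutamine transporter gene Slc38a1 (1.98), Vim (1.71), the cytoskeletal linker gene Plec (1.40), S100a6 (1.204), Fbxo2 (1.15) and Kif1c (1.12). Vim was 143, 207, 163 and 25.3 CPM with and 22.4, 70.3, 38.8 and 24.4 CPM without a Gfap UMI, so that mouse 34 showed almost no difference. After thinning to 1000 UMIs S100a6 was 0.56 and Kif1c 0.18, and neither was called (edgeR adjusted p = 0.051 and 0.88). Plec, Fbxo2 and Kif1c each lost the call when single mice were left out, Plec without any 1 of the 4.

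On the lower side were Dctn3 (-1.25), Tecr (-0.74), the claudin gene Cldn10 (-0.65), Nkain4 (-0.64), Ndufa12 (-0.62), Gstm5 (-0.60), Malat1 and Mbp (both -0.56), Ldhb (-0.53) and Gm3764 (-0.51). Malat1, a nuclear long noncoding RNA, was at 52150, 31450, 38630 and 59720 CPM against 76680, 46750, 59740 and 79160 CPM (-0.56 ± 0.03, SE), and Mbp, the myelin basic protein gene of oligodendrocytes, at 2530, 1484, 1323 and 1367 against 3627, 2224, 1818 and 1970 CPM. Dctn3 was -0.13 with another thinning of the same cells and was not called there, and the calls of Tecr, Ndufa12, Gstm5 and Ldhb were lost too. After thinning to 1000 UMIs Dctn3, Tecr, Cldn10, Nkain4, Ndufa12 and Ldhb were not called. Dctn3 also lost its call without mouse 3, 30 or 34, Tecr without mouse 4, 30 or 34, Ndufa12 and Gstm5 without mouse 3 or 34, and Ldhb without mouse 34.

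By list, 0 of 11 transmitter clearance genes and 0 of 10 FGF genes were called by edgeR, and 0 by DESeq2 of the 11 and 5 to which it gave an adjusted p. At an unadjusted p under 0.05 edgeR had 5 and 1 of them, and 319 of all 2480 genes. Calls made up 2 of 10 potassium, water and junction genes, 3 of 13 lipid genes and 2 of 10 synapse and matrix genes. Among potassium, water and junction genes, Aqp4 was higher (0.73). Apoe (0.23), Clu (0.36) and Scd2 (0.49) were higher among lipid genes, as were Sparcl1 (0.26) and Sparc (0.17) among synapse and matrix genes and Mt1 (0.20). After thinning to 1000 UMIs Aqp4 (0.44), Clu (0.22), Sparcl1 (0.19) and Sparc (0.15) were not called. Both tested pan-reactive genes, Vim and Serpina3n (1.06), were higher, and Fos was lower (-0.62), in 3 of 4 mice. DESeq2 called 1 of 9 potassium, water and junction genes, 2 of 10 lipid genes and 1 of 7 synapse and matrix genes to which it gave an adjusted p. It called 0 of 5 immediate early genes (2 at an unadjusted p under 0.05, Fos with an adjusted p = 0.079) and gave no adjusted p for Vim and Serpina3n. These smaller differences were less stable: Serpina3n and Sparc lost their calls without any 1 mouse. Apoe lost its call without mouse 3, 30 or 34, Sparcl1 without mouse 4, Fos without mouse 3 and Mt1 without mouse 30. Microglial and tanycyte markers did not pass the filter here, so their part in the split was not tested. Without cluster 12, where these markers were higher, 47 genes were called.

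**Figure D5:**
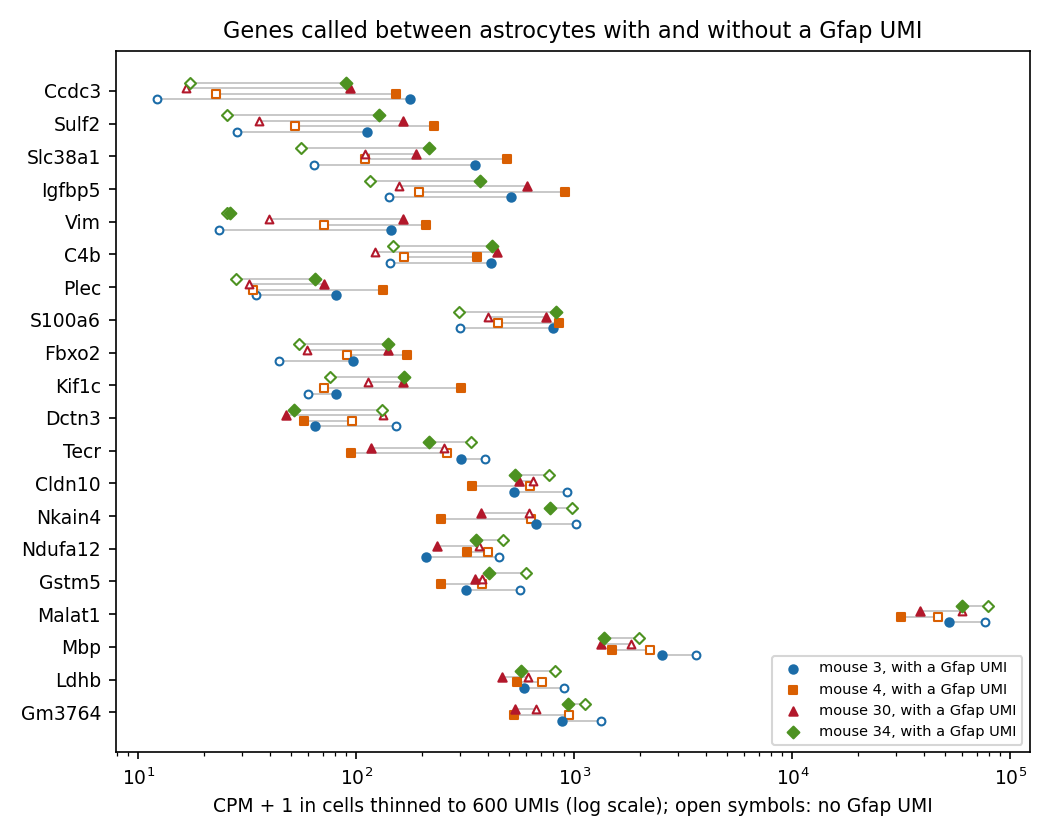
Genes called, with the same direction in every mouse, between astrocytes with a Gfap UMI (filled symbols) and without (open symbols). There is 1 symbol shape per mouse, in CPM plus 1 on a log axis after thinning to 600 UMIs. The 10 genes at the top are higher with a Gfap UMI, led by Ccdc3, and the 10 at the bottom are lower, with Malat1 and Mbp below their open symbols in all 4 mice.

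A split on Agt gave far fewer differences. Its UMIs were found in 58.4%, 54.9%, 58.2% and 61.5% of the thinned astrocytes (58.3% ± 2.71, SD, n = 4), an even share across mice. Of 5165 genes, 5 were higher in cells with an Agt UMI (0.0968%) and 1 was lower (0.0194%). They were the transcription factor gene Klf3 (1.22), the lipoprotein-associated phospholipase gene Pla2g7 (0.38), Itih3 (0.17), Apoe (0.14), the cystatin C gene Cst3 (0.09) and Malat1 (-0.10), each in the same direction in 4 of 4 mice. Pla2g7 was at 519, 346, 355 and 458 CPM with and 367, 320, 318 and 352 CPM without an Agt UMI, and the groups overlap. Klf3 was at 0.39 and not called with another thinning. DESeq2 called 0 genes in this split (21 at an unadjusted p under 0.05), and edgeR without the block on mouse called 0 (109 at an unadjusted p under 0.05), so these 6 calls rest on the model used.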

How the data were processed

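Hypothalamic cells of 4 R50E mice were analysed by single-cell RNA sequencing (10x Chromium 3′ v2), and the 2 labelled mice without cells in the table, 12 and 37, were not analysed here. The submitters' processing notes name Cell Ranger 1.2, Seurat and the builds GRCm38, mm10 and GRCh38. The deposited raw UMI counts were whole numbers and summed to the listed total in all 20151 cells. The authors' mitochondrial percent, their doublet score (deposited as a fraction from 0 to 1), their silhouette score and their cell type labels and clusters were used as deposited. Deposited cells had at least 487 UMIs, at least 396 genes and at most 20.0% mitochondrial UMIs, and none was called a doublet by the authors. The table held 12 other libraries (50172 cells) that are not among the labelled samples, and they were not used. The labels give no batch, and the normalized counts, made over all libraries, were not used.

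Counts were summed per mouse and type and fitted with edgeR 4.0.16 in R 4.3.3 (quasi-likelihood F test, TMM, filterByExpr, Benjamini-Hochberg adjustment) with mouse as a block, because both sums of a pair come from the same animal. DESeq2 1.42.0 was an alternative. For the splits, cells were thinned once (seed 20). The fits were tested on simulated data. Named genes were the 4 markers, the 15 with the largest ratio to the next type, members of fixed lists, the 10 of largest dispersion, the 5 of largest change each way per pair of types and the 10 each way per split. Those of the splits were taken among called genes with the same direction in every mouse. The cells, lists and rules were chosen with earlier results of these data known. Alternatives were another normalization, no filter, no block, each mouse left out, thinner sums and fewer cells. Some named genes are not reported here.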

Additional observations from a re-analysis of the deposited data

Results flagged for a closer look

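Of 125 groups of 4 mice screened, 9 had 1 mouse far from the other 3. The gap in each was more than 0.829 of the whole range. Chance alone sets apart about 1 group in 20 when groups are independent and not chosen by their spread. That rate does not apply here, because Gm10076, Hbb-bs and Rpl13 are among the genes named for their large dispersion between mice. Some groups also overlap, as Hbb-bs is part of the summed blood markers. Whether 9 groups exceed chance was therefore not tested. In 5 of the 9 mouse 30 was the one apart. Its astrocytes held Hbb-bs at 300.2 CPM, a summed level of blood markers of 548.3 CPM and a summed level of A1 genes of 286.2 CPM, each the highest. They also had the lowest share in cluster 2, 18.86%, and the highest in cluster 21, 8.055%. Mouse 4 had the highest Gm10076 (542.2 CPM), Rpl13 (790.2 CPM) and Scd2 (2846 CPM, against 2416 to 2466 CPM in the others). Mouse 34 had the highest summed level of the energy metabolism list, 4987 CPM against 4673 to 4721 CPM. The causes were not tested.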

How the results depend on the processing

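The comparisons of types depended little on the settings. Genes called against tanycytes, ependymal cells and oligodendrocyte precursor cells (OPC) were 2128, 2665 and 1604, and without the replicate block on mouse they were 2118, 2678 and 1588. Leaving out each mouse gave 1862 to 2429, 2448 to 2976 and 1617 to 1945 genes. Sums thinned to the smallest total gave 1348 genes against tanycytes and 1040 against OPC, with fewer genes passing the filter, and no filter gave 2725 against OPC, with more genes tested. Of the followed genes of these 3 comparisons (124, 118 and 101), none changed direction under the alternatives in which it was tested, and with thinned sums 31, 18 and 14 of them were not tested. Of all 2665 genes called against ependymal cells, 1 had the other sign without mouse 30, Csf1, named after its values were seen.

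The splits were less stable. In the Gfap split, the 66 genes became 7 without the replicate block, 27 with DESeq2, 30 after thinning to 1000 UMIs and 183 with no filter, and 32 to 57 when each mouse was left out, with the fewest without mouse 34. The balance of 50 higher and 16 lower genes became 15 and 168 with no filter, which moved the median of all genes to -0.41, and 37 and 50 when at least 2 Gfap UMIs were required. With no filter, Apoe (-0.051), Sparcl1 (-0.022), Sparc (-0.11) and Mt1 (-0.078) changed sign, and Sparc also with at least 2 UMIs (-0.10). In the Agt split, the 6 genes became 17 with no filter, 0 by edgeR after thinning to 1000 UMIs (115 at an unadjusted p under 0.05), 0 without the replicate block and 0 with DESeq2. They were 3, 3, 4 and 1 without mice 3, 4, 30 and 34. The share of astrocytes with a Gfap UMI was 15.6% after thinning to 1000 UMIs, which kept 1610 deeper cells, and 7.63% to 11.0% when each mouse was left out, while the share of astrocytes ranged from 24.2% to 29.9% and the BCV from 0.120 to 0.156. Removing cluster 12, an alternative chosen after seeing the data, gave 2202, 2576, 1542, 47 and 6 genes in the 5 comparisons. The causes of these changes were not tested beyond the numbers of genes and cells named. Genes under about 10 CPM rest on few UMIs in mouse 30, which has the smallest sum.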
